A study of Arabidopsis thaliana with 6 samples.

Results

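The glucosinolate synthesis genes described here are 6 genes of Arabidopsis thaliana: MYB28 (AT5G61420), BCAT4 (AT3G19710), MAM1 (AT5G23010), CYP79F1 (AT1G16410), CYP83A1 (AT4G13770) and UGT74B1 (AT1G24100). They were chosen by name from the known pathway, out of 13290 loci with a probe set named in the sources used here. Earlier results of these data were known when the 6 genes were chosen. BCAT4 and UGT74B1 were found by locus in the platform's gene table. MYB28, MAM1, CYP79F1 and CYP83A1 were taken by their ATH1 probe set IDs, and these 4 assignments were not checked against that table, which does not list them. All 6 passed the filter on low values.

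Transcript levels were read on 6 Affymetrix ATH1 arrays, 3 of wild-type plants and 3 of plants labelled as carrying a T-DNA insertion in RLI, an ABCE-type ATP-binding protein (RNase L inhibitor) that helps to recycle ribosomes. RNA came from whole plants lifted from soil with their roots, with 4 plants per pot. The wild-type plants carry the stage label 3.20 weeks and the rli plants 1.14 weeks. These labels may be growth stage codes and are not read as ages here. Both groups have Co-1 as source name and share 1 stock code, and nothing in the labels says whether the insertion line is 1 line or several or whether replicates came from separate plants. The effects of genotype, of the labelled stage and of any difference in accession therefore cannot be told apart, and the spread behind each p-value is that between these arrays, which may be technical.

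Glucosinolates are sulfur-rich thioglucosides of the Brassicaceae, stored in vacuoles and cleaved by myrosinases when tissue is damaged, which releases compounds that deter herbivores. Those made from methionine are the main leaf forms of Arabidopsis: the amino acid's side chain is lengthened, the core structure is built by cytochromes P450, a glutathione transferase, a lyase, a glucosyltransferase and sulfotransferases, and the side chain is then modified. The amounts and chain lengths differ widely between natural accessions, with the MAM and AOP loci among the best known sources of that variation.

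Of the 6 genes, CYP83A1 fell in rli, 0 rose, and the other 5 did not pass the test. The 6 differences did not share a direction: CYP83A1 and BCAT4 had lower means in rli and the remaining 4 had higher ones, with a median of 0.19 on the log2 scale against 0.04 over all tested probe sets. For comparison, 6.80% of the 13648 tested probe sets passed in either direction and 2.53% passed with a lower level in rli, so 1 of 6 is a count too small to set the group apart. An unadjusted p under 0.05 was found for 2 of the 6 (CYP83A1 and BCAT4) and for 21.1% of all tested probe sets. Values are MAS5 intensities, and differences are rli minus wild type on the log2 scale ± the limma standard error (n = 3 arrays in each group). Passing means an adjusted p under 0.05 (limma, Benjamini-Hochberg over all tested probe sets). Missing the threshold does not show that a gene was unchanged, and the 95% confidence intervals give the sizes these arrays allow.

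MYB28 encodes the R2R3-MYB transcription factor that activates the genes of methionine-derived glucosinolates. Its intensity, given here and below in the order of replicates 1, 2 and 3, was 147, 208 and 122 in wild type and 154, 187 and 179.7 in rli. The groups overlapped, with both the highest and the lowest value among the wild-type arrays. The difference was 0.16 ± 0.24 (limma adjusted p = 0.78), with a 95% confidence interval from -0.37 to 0.68, so a change of 2-fold in either direction lies outside the interval. Leaving out wild-type replicate 3 gave -0.02, and leaving out wild-type replicate 2 gave 0.37.

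BCAT4 encodes the aminotransferase that deaminates methionine at the entry to side-chain elongation. It read 1366, 1595 and 1313 in wild type and 1028, 1011 and 969.9 in rli. Every rli array lay below every wild-type array, a separation in that direction that 12.9% of tested probe sets also had. The difference of -0.50 ± 0.18 did not pass (limma adjusted p = 0.14), although its interval, from -0.90 to -0.10, does not hold 0. It passed without wild-type replicate 3 (-0.56, limma adjusted p = 0.029) and with array weights (-0.53, limma adjusted p = 0.013). These settings passed 15.3% and 23.3% of all tested probe sets, against 6.80% in the fit reported here.

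MAM1 encodes the methylthioalkylmalate synthase that adds carbon to the side chain and lies at a locus where accessions differ in chain length. Its intensity was 835, 588 and 635 in wild type and 813, 781 and 796 in rli. The rli values lay close together and inside the range of the wild-type arrays, of which replicate 1 was the highest of all 6. The difference was 0.23 ± 0.19 (limma adjusted p = 0.56), with an interval from -0.20 to 0.67. Leaving out wild-type replicate 1 gave 0.38, leaving out wild-type replicate 2 gave 0.13, and array weights gave 0.14.

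CYP79F1 encodes the cytochrome P450 that turns the elongated methionine derivatives into aldoximes. Its probe set is of the _s_at kind, whose probes match more than 1 transcript, and the signals of CYP79F1 and of its neighbouring paralogue CYP79F2 cannot be told apart in it. It read 40.2, 49.0 and 42.5 in wild type and 63.5, 69.4 and 54.1 in rli, not far above the filter level of 24.7. Every rli array lay above every wild-type array, as for 15.2% of tested probe sets, but the difference of 0.50 ± 0.25 did not pass (limma adjusted p = 0.29; interval -0.06 to 1.06).

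CYP83A1 encodes the cytochrome P450 of the next step, which oxidises those aldoximes. Its intensity was 1267, 1123 and 1258 in wild type and 766, 758 and 705 in rli. The groups lay well apart, with a mean of 1216 ± 80.5 (SD, n = 3) against 743 ± 33.0 (SD, n = 3). CYP83A1 fell by 0.71 ± 0.17 on the log2 scale, to 0.612 of the wild-type level (limma adjusted p = 0.042; interval -1.10 to -0.32). A difference at least as large in either direction was found for 17.5% of tested probe sets. The adjusted p stands close to the threshold, and the call held without wild-type replicate 3 (-0.68, limma adjusted p = 0.010) but was lost without any other single array: the adjusted p was 0.14 and 0.090 without wild-type replicates 1 and 2, and 0.15, 0.089 and 0.19 without each of the rli arrays in turn. It was also lost after median centring (0.24) and quantile normalization (0.063), with no filter (0.061) and with no intensity trend (0.087), while the difference stayed between -0.78 and -0.57 in all 14 alternatives.

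UGT74B1 encodes the S-glucosyltransferase that adds glucose to the thiohydroximate core. It read 264, 258 and 111 in wild type and 254, 273 and 245 in rli. Wild-type replicate 3 was far below the other 5 arrays, which lay together. The difference of 0.39 ± 0.32 (limma adjusted p = 0.54) rested on that array and was -0.02 without it (limma adjusted p = 0.96). Over all probe sets the same array also stood apart, with a mean correlation of 0.77 with the other arrays, against 0.84 to 0.85 for each of those.

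**Figure D1:**
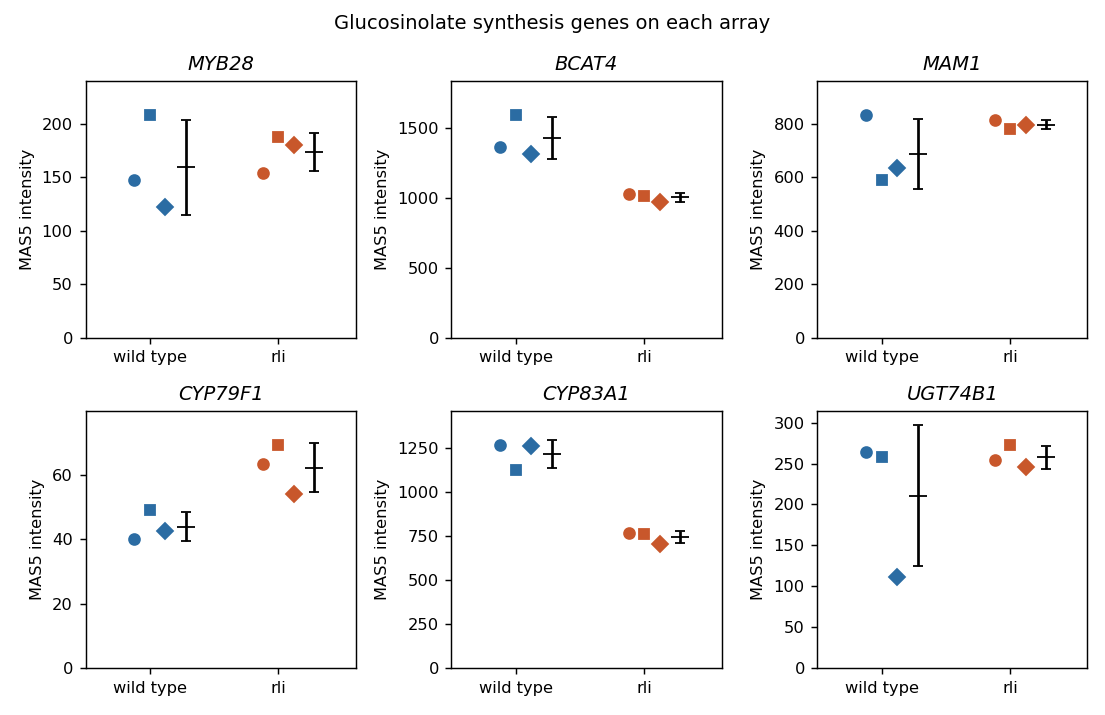
MAS5 intensity (vertical axes, linear from 0) of the 6 genes on each array, wild type in blue and rli in orange, with circles, squares and diamonds for replicates 1, 2 and 3 and bars for the mean ± SD (n = 3). The groups are separate for BCAT4 and CYP83A1 (lower in rli) and for CYP79F1 (higher in rli), and wild-type replicate 3 of UGT74B1 reads 111 against 245 to 273 on the other 5 arrays.

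Of the 6 genes, 3 had groups that did not overlap, beside 28.1% of all tested probe sets. A change in the scaling of whole arrays moves all genes of an array together, and ratios between 2 genes within an array do not depend on it. These ratios were chosen after the values were seen and were not tested, and only their change between groups is read, since levels of different probe sets are not comparable. The log2 ratio of CYP79F1 to CYP83A1, consecutive enzymes, was -4.98, -4.52 and -4.89 in wild type and -3.59, -3.45 and -3.70 in rli, a difference of 1.21. With CYP79F1 higher and CYP83A1 lower on every rli array, the groups of this ratio could not overlap. The log2 ratio of MAM1 to BCAT4, both in side-chain elongation, was -0.71, -1.44 and -1.05 in wild type and -0.34, -0.37 and -0.29 in rli, a difference of 0.73 with no overlap. The share of all gene pairs with separate ratios was not computed. The ratio of CYP83A1 to BCAT4, the pair with lower means in rli, differed by -0.21 and its groups overlapped.

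The likeness of profiles was measured as the root mean square distance, on the log2 scale, between values centred on each gene's mean over the 6 arrays. BCAT4 and CYP83A1 were the nearest pair among the 6 genes, at 0.18, and 2.07% of the other tested probe sets were nearer to CYP83A1 than BCAT4 was. MYB28 and CYP79F1 followed at 0.28, MAM1 and CYP79F1 at 0.29 and MYB28 and UGT74B1 at 0.31, while CYP83A1 and UGT74B1 were farthest apart at 0.70. For MYB28, 18.6% of tested probe sets were nearer than its closest gene of the group, CYP79F1. Among genes with a symbol outside the group, the nearest to CYP83A1 were GSTU27, a tau-class glutathione transferase (0.065), and RAB6A (0.080), and the nearest to BCAT4 were Fes1B (0.067) and ty2 (0.076). APM1 (0.074) and SPY (0.081) were nearest to MYB28, SCPL49 (0.086) and ATMAP65-6 (0.11) to MAM1, TPP2 (0.11) and NdhS (0.11) to CYP79F1, and DJ1D (0.083) and SAMDC (0.11) to UGT74B1. With 6 arrays, many probe sets lie this close, and the distance is a description only.

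The rest of the pathway was read from lists of 134 other loci, covering synthesis, regulation, breakdown, transport, sulfate assimilation, precursor amino acids and paralogues of UGT74B1. Of these, 23 had a named probe set and 19 passed the filter on low values. Of the 19, 3 rose (GTR1, AT1G04770 and MYC3), 1 fell (GSTU20) and 15 did not pass, with a median difference of 0.04, equal to that of all tested probe sets at this rounding. Among all tested probe sets 4.27% rose and 2.53% fell.

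GTR1 (AT3G47960), a transporter that loads glucosinolates into the phloem, had the largest difference among the 25 tested genes of the pathway. Its intensity was 176, 122 and 92.2 in wild type and 441, 719.8 and 468 in rli, with no overlap. GTR1 rose by 2.07 ± 0.28, or 4.21-fold (limma adjusted p = 0.0026), and passed in all 14 alternatives. Its paralogue GTR2 (AT5G62680), which acts with it, read 379, 252 and 186 in wild type and 231, 304 and 230.1 in rli. The difference of GTR2 was -0.05 ± 0.27 (limma adjusted p = 0.95; interval -0.65 to 0.56), and the groups overlapped. Within each array the log2 ratio of GTR1 to GTR2 lay between -1.10 and -1.02 in wild type and between 0.93 and 1.24 in rli. The myrosinase-like glucosidase PYK10 of the same list stood at 0.21 ± 0.19 (limma adjusted p = 0.60), and at 0.09 without wild-type replicate 3 and 0.36 after quantile normalization.

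GSTU20 (AT1G78370), a tau-class glutathione transferase proposed to act in building the core of methionine-derived glucosinolates, read 1852, 1977 and 1663 in wild type and 762, 869 and 998 in rli. It fell by 1.07 ± 0.19, to 0.477 of the wild-type level (limma adjusted p = 0.0093), with every rli array below every wild-type array. The call was lost after median centring (limma adjusted p = 0.089) and without rli replicate 1 (0.067). In the list of core structure genes, 2 of 5 tested members thus fell, CYP83A1 and GSTU20, and 0 rose, beside 2.53% and 4.27% of all tested probe sets. The other 3 did not pass: CYP79F1 (0.50) and UGT74B1 (0.39) had higher means in rli and AT2G31790 (-0.14) a lower one. Of the 19 loci in this list only 6 had a probe set, and CYP79F1 and CYP83A1 entered by the probe set IDs of the members. The count is too small to set the list apart. The side-chain elongation list had 2 tested members, BCAT4 and MAM1, and neither passed.

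The leaf markers also had lower means in rli. Of 8 leaf markers 4 had a named probe set (RCA, PSAN, PSBW and PSBY), all 4 had a lower mean in rli, beside 46.7% of all tested probe sets. Of the 4, 1 fell, beside 2.53% of all tested probe sets: PSAN, a subunit of photosystem I, by 1.54 ± 0.27 (limma adjusted p = 0.0090; 0.055 without rli replicate 3). Their summed intensity was 14764 to 16970 in wild type and 8737 to 10632 in rli. Of 8 root markers 3 had a named probe set: PYK10 read 855 to 1137 in wild type and 1076 to 1254 in rli, and the mean intensities of AT5G17820 and AT4G30170 were below the filter level in both groups. The summed intensity of the root markers was 864 to 1152 in wild type and 1089 to 1281 in rli. No floral or seed marker was analysed here. In RNA of whole plants, fewer cells of a type and less RNA per cell cannot be told apart, and the part of leaf content in the lower CYP83A1, GSTU20 and BCAT4 was not tested.

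Among the regulators, MYC3 (AT5G46760), a bHLH factor that binds MYB28 and acts with it on these genes, read 74.5, 76.5 and 74.8 in wild type and 109, 159 and 136 in rli. It rose by 0.82 ± 0.21, or 1.77-fold (limma adjusted p = 0.048). Like CYP83A1 it lost the call without any single array except wild-type replicate 3, at an adjusted p of 0.14 and 0.11 without wild-type replicates 1 and 2 and 0.071, 0.15 and 0.17 without rli replicates 1 to 3, and after median centring (0.31), quantile normalization (0.079), with no filter (0.072) and with no intensity trend (0.082). MYC4 (AT4G17880), its close relative, stood at -0.04 ± 0.24 (limma adjusted p = 0.95). MYC3 and MYC4 also act in jasmonate signalling.

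Sulfate assimilation supplies the sulfur of glucosinolates and the activated sulfate for the last core step. In the list drawn up for it, 1 of 4 tested loci rose, AT1G04770, beside 4.27% of all tested probe sets. A place in the list does not make this locus an enzyme of assimilation, and sulfur supply was not measured. AT1G04770 read 62.2, 58.4 and 33.7 in wild type and 155, 177 and 139 in rli. Its rise was 1.66 ± 0.27, or 3.15-fold (limma adjusted p = 0.0064), and the call was lost after quantile normalization (0.053) and median centring (0.070). The ATP sulfurylase gene APS3 read 184, 169 and 99.4 in wild type and 279, 326 and 246 in rli, and its difference of 0.95 ± 0.26 did not pass (limma adjusted p = 0.059). APS4, a second gene of that enzyme, read 234, 242 and 124 in wild type and 383, 342 and 336 in rli, with a difference of 0.88 ± 0.27 (limma adjusted p = 0.085). For both, every rli array lay above every wild-type array, as for 15.2% of tested probe sets, and wild-type replicate 3 was the lowest of all. Without that array the differences were smaller and passed, at 0.68 (limma adjusted p = 0.026) and 0.57 (0.035), as did 15.3% of tested probe sets. Both passed with array weights (0.64, limma adjusted p = 0.016, and 0.62, 0.014), and APS3 with the filter at the 60th percentile (limma adjusted p = 0.047). Array weights passed 23.3% of tested probe sets and that filter 9.95%. The remaining tested locus, SIR, went the other way. It read 586, 617 and 524 in wild type and 441, 477 and 390 in rli, with every rli array below every wild-type array, as for 12.9% of tested probe sets. The difference of SIR was -0.40 ± 0.18 (limma adjusted p = 0.25), and it passed only with array weights (limma adjusted p = 0.021), as did 23.3% of tested probe sets.

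The 5 tested genes of methionine, leucine and tryptophan synthesis and turnover had 0 that passed with limma and 1 under an unadjusted p of 0.05, MGL, the methionine gamma-lyase, at 0.78 ± 0.31 (limma adjusted p = 0.18). MGL passed with array weights (0.83, limma adjusted p = 0.044), as did 23.3% of tested probe sets. AT1G50110 stood at -0.59 ± 0.37 (limma adjusted p = 0.41), and at -0.15 without rli replicate 2 and -0.23 with array weights. The list of UGT74 paralogues had 1 tested gene, UGT74D1, at 0.87 ± 0.38 (limma adjusted p = 0.22), and at 0.44 without wild-type replicate 3 and 0.34 with array weights. That list does not hold every UGT74 gene, and AT2G31790 of the core structure list stood at -0.14 ± 0.19 (limma adjusted p = 0.74). Of 2 tested genes of side-chain modification 0 passed and 0 had an unadjusted p under 0.05, with AOP1 at 0.04 ± 0.33.

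**Figure D2:**
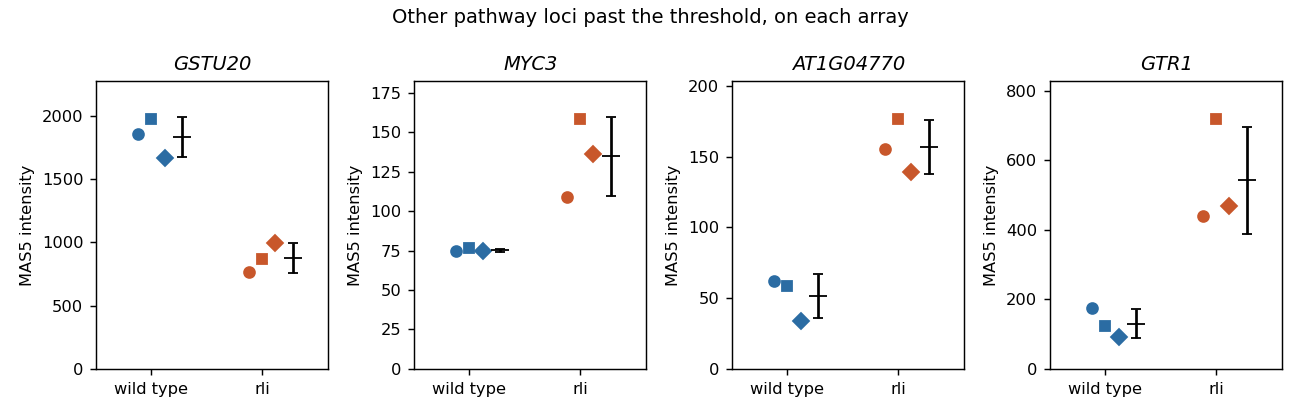
MAS5 intensity (vertical axes, linear from 0) of the 4 other pathway loci past the threshold, wild type in blue and rli in orange, with circles, squares and diamonds for replicates 1, 2 and 3 and bars for the mean ± SD (n = 3). No group overlaps: GSTU20 is lower in rli, and MYC3, AT1G04770 and GTR1 are higher, GTR1 at 441 to 719.8 against 92.2 to 176.

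**Figure D3:**
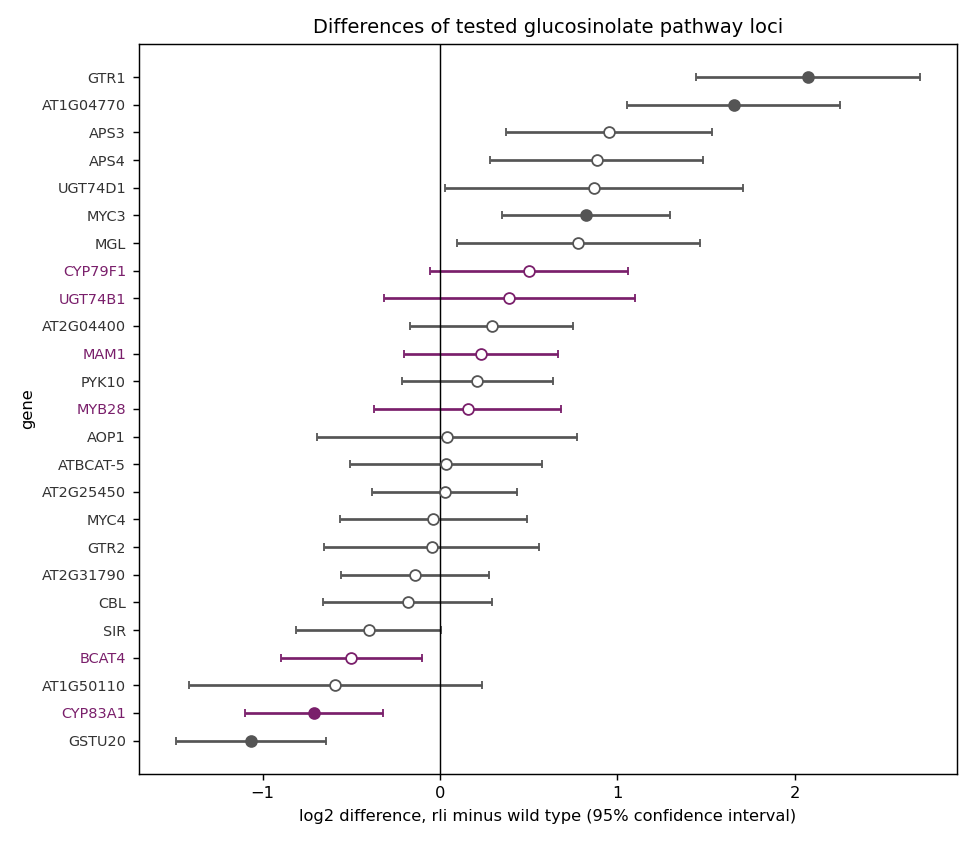
Log2 differences (horizontal axis, rli minus wild type) of the 25 tested pathway loci with 95% confidence intervals from the limma fit, sorted by size, with the 6 glucosinolate synthesis genes in purple and filled points for an adjusted p under 0.05. GTR1 lies highest at 2.07 and GSTU20 lowest at -1.07, and the purple points run from -0.71 (CYP83A1) to 0.50 (CYP79F1).

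Loci known to vary between accessions were listed separately, 10 in all, of which 3 had a probe set: MAM1, AT2G25450 and AOP3. Of the 2 tested, 0 passed with limma and 0 had an unadjusted p under 0.05. AT2G25450 read 680.2, 665 and 551 in wild type and 598, 651 and 676 in rli, a difference of 0.03 ± 0.18 (limma adjusted p = 0.96; interval -0.38 to 0.43). AOP3, a dioxygenase of side-chain modification, had its mean below the filter level in both groups and was not tested; it read 8.36, 0.55 and 50.5 in wild type and 21.7, 14.1 and 26.2 in rli. Neither tested locus thus gave a difference beyond the spread between arrays, and a transcript level carries no reading of the sequence at these loci.

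**Figure D4:**
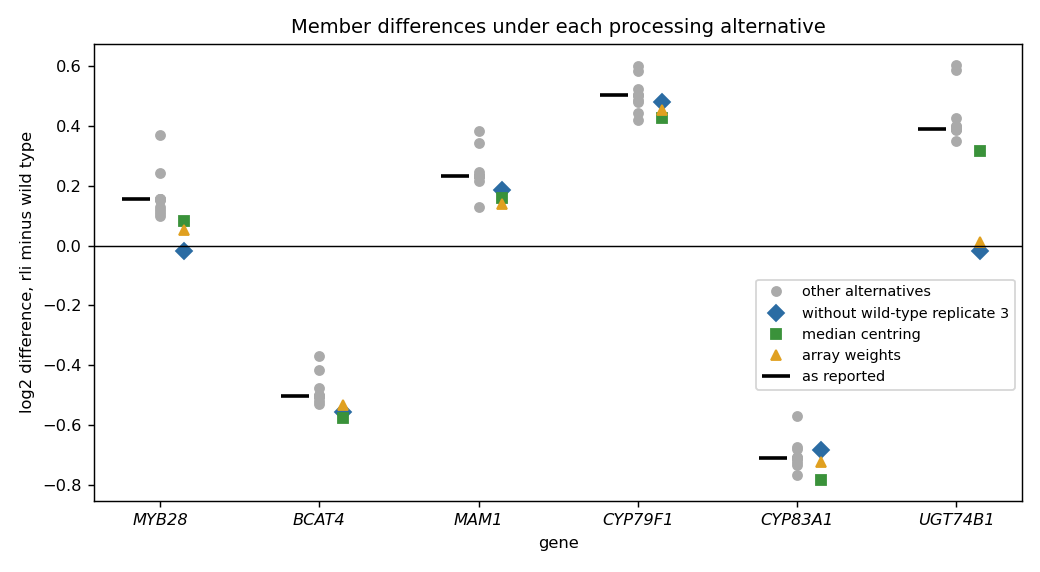
Log2 difference (vertical axis, rli minus wild type) of each of the 6 genes as reported (black bar) and under the 14 processing alternatives (13 for CYP79F1), with median centring, array weights and the fit without wild-type replicate 3 marked. CYP83A1 and BCAT4 stay below 0 and MAM1 and CYP79F1 above 0 throughout, while MYB28 and UGT74B1 reach -0.02 without wild-type replicate 3.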

How the data were processed

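The authors deposited 1 linear intensity per probe set and array. Per the submitters' processing notes the tools were MAS5 and GCOS; their versions are not given in the sources used here. Without the lowest and highest 2% of values, the mean intensity was 100.01 on each array, and the values were used as deposited, on the log2 scale. The median intensity still ran from 35.8 on wild-type replicate 1 to 53.0 on wild-type replicate 3. Median centring and quantile normalization are therefore among the alternatives below. Of 22810 probe sets, 64 controls were left out, and the 13648 with a mean log2 value at or above the 40th percentile (4.63) were tested, two-sided, for a difference between genotypes with no covariate in limma 3.58.1 (R 4.3.3; lmFit, eBayes, trend on), and p-values were adjusted by Benjamini-Hochberg. The number of arrays limits the precision. Figures used matplotlib 3.10.9.

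Probe sets were named through the platform's gene table and a reference gene table (TAIR10.1): 13436 probe sets with 1 gene were matched. The members and lists were chosen with earlier results of these data known. The genes named are the members, every list locus that passed, the 2 with the smallest p among the others of each list, and the 2 genes with a symbol nearest each member in profile. SIR, AT2G31790, AOP3, the leaf and root markers and the within-array ratios were chosen outside that rule. No sequence or coordinate was used.

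On simulated data with 200 changed genes among 13648, the fit recovered 0% at a log2 difference of 1, 74% at 2 and 89% at 3. The adjustment depends on how many genes change, and in the real data 928 probe sets passed. CYP83A1 (-0.71) and MYC3 (0.82) were among them, so these shares are not those recovered in the real data.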

Additional observations from a re-analysis of the deposited data

How the results depend on the processing

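The 14 alternatives were quantile normalization, median centring, no filter, a filter at the 60th percentile, an offset of 2.45 (the 10th percentile) before the log, no intensity trend, array weights, a replicate block, and the 6 fits that each lack 1 array. The count of 1 glucosinolate synthesis gene past the threshold became 0 with quantile normalization, median centring, no filter or no intensity trend and 2 with array weights (BCAT4 and CYP83A1). It lay between 0 and 2 when single arrays were left out. The count of 4 other pathway loci became 2 after quantile normalization, 1 after median centring (GTR1) and 8 with array weights, among them SIR, and lay between 2 and 6 when single arrays were left out. Over all probe sets the count of 928 was 332 after median centring, 593 without the trend, 3181 with array weights and 383 to 2084 when single arrays were left out. Those 6 fits have fewer degrees of freedom, yet the one without wild-type replicate 3 gave the highest count. The other causes were not tested.

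Of the members and list genes named by the stated rule, signs turned for MYB28, UGT74B1, AOP1, AT2G25450, MYC4 and GTR2, none of them called. When single arrays were left out, MYB28 ranged from -0.020 to 0.37, UGT74B1 from -0.019 to 0.60, AOP1 from -0.18 to 0.23, AT2G25450 from -0.070 to 0.082, MYC4 from -0.19 to 0.083 and GTR2 from -0.29 to 0.22. AOP1 stood at -0.055 after quantile normalization and -0.034 after median centring, and AT2G25450 at -0.048 after median centring and -0.051 with array weights. All 29 recomputed distances moved by less than the spread between replicates, but median centring and the filters cannot change the distance between a given pair of genes. Quantile normalization changed the nearest gene of the group for MYB28 (to BCAT4) and MAM1 (to MYB28). It also made CYP79F1 and UGT74B1 each other's nearest, at 0.18, while BCAT4 and CYP83A1 remained so at 0.20.

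With the replicate block, 1 glucosinolate synthesis gene, 6 other pathway loci (APS3 at an adjusted p of 0.019 and APS4 at 0.035 gained) and 1300 probe sets passed. The deviations of same-numbered wild-type and rli samples correlated at -0.09, 0.33 and 0.32. Wild-type replicates 2 and 3 were closest to the rli sample with their own number and wild-type replicate 1 to rli replicate 2 (0.27). Not every pair correlated above 0.1, so the numbers are not taken to pair the samples.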
